A study of Homo sapiens with 6 samples.

Results

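Cells take up and release chloride through cation-chloride cotransporters, and a short kinase cascade sets the balance between the inward and outward ones. WNK kinases, which sense chloride and cell volume, phosphorylate the STE20-family kinase STK39 (also called SPAK) and its close relative OXSR1 (also called OSR1). STK39 and OXSR1 in turn phosphorylate cotransporters, which switches on the sodium-potassium-chloride carrier SLC12A2 (NKCC1) and switches off the potassium-chloride carriers such as SLC12A4 (KCC1) and SLC12A7 (KCC4). In intestinal epithelium SLC12A2 loads the cell with chloride for secretion. RNA levels of 8 genes of this cascade, STK39, OXSR1, WNK1, WNK2, WNK4, SLC12A2, SLC12A4 and SLC12A7, are described here out of 56638 gene symbols counted. The 8 genes were picked by symbol, with the read counts and fold changes of these same libraries already known, so their values in this comparison are a description and carry no p-value. "Called" below means an adjusted p under 0.05 in a fit across all genes.

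The libraries were made from HCT116 cells, an established line of human colorectal cancer. In 3 libraries the cells were labelled ZFP90 knockout, made with guide RNAs against exon 3 of ZFP90, a KRAB zinc-finger gene. The other 3 were labelled control. Passage 16 to 19 is given for all 6, and nothing in the labels says whether replicates were separate cultures or whether the knockout was a clone or a pool, so the spread between libraries may be technical. Reads in genes numbered 14450905 to 17012910 in the libraries labelled knockout and 13424356 to 16215490 in the controls. ZFP90 RNA itself was higher in the libraries labelled knockout, at 85.7 ± 4.75 against 46.0 ± 2.53 CPM (reads scaled to equal library size; SD, n = 3 each; edgeR adjusted p = 5.1e-05). The RNA level thus shows no loss of ZFP90, but gene-level counts cannot show whether exon 3 is disrupted. Every direction below is for the libraries as labelled. Of 10 epithelial markers 8 passed the count filter, with EPCAM at 348 ± 4.64 and 349.8 ± 11.8 CPM in knockout-labelled and control libraries (SD, n = 3 each), while CDX1 was at 0 in all 6 libraries. VIL1 had at most 2 reads in any library. KRT18 was called lower, at 191, 169.9 and 174 CPM in the libraries labelled knockout and 196, 226 and 208 CPM in the controls. ELF3 and KRT8 did not overlap between the groups, in opposite directions, and neither was called. In knockout-labelled and control libraries ELF3 was at 117 ± 8.25 and 139 ± 12.9 CPM (SD, n = 3 each). KRT8 was at 1394 ± 48.3 and 1318 ± 24.1 CPM. The other epithelial markers that passed overlapped. The 6 leukocyte markers summed to between 0.780 and 1.03 CPM in the libraries labelled knockout and between 0.724 and 1.19 CPM in the controls, with CD3E at 0 in all. The 8 fibroblast and endothelium markers summed to 73.9 to 92.9 CPM in the libraries labelled knockout and 72.5 to 93.2 CPM in the controls. Most of that was COL1A1, at 74.3 ± 8.12 and 73.9 ± 9.51 CPM in knockout-labelled and control libraries (SD, n = 3 each). Control replicate 2 stood apart by chromosome: the median tested gene on chromosomes 6 to 9 and X was at 54.7% to 88.0% of its level in the other controls, which touches WNK2 on chromosome 9.

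The sequences just upstream of STK39, OXSR1 and WNK1, the 3 members with the highest levels per kilobase, are shown here. Any link between these sequences and the fold changes was not tested. They are the 250 bases before the RefSeq gene start (GRCh38.p14), written 5′ to 3′ on the gene's strand. Capitals mark the GC box GGGCGG and the half-palindrome TGACG of the cAMP response element, each on either strand. The windows lie at chr2:168247596-168247845 on the minus strand for STK39, at chr3:38165287-38165536 on the plus strand for OXSR1 and at chr12:752329-752578 on the plus strand for WNK1. GENCODE transcripts of STK39 and OXSR1 can start further upstream than these RefSeq starts.
STK39: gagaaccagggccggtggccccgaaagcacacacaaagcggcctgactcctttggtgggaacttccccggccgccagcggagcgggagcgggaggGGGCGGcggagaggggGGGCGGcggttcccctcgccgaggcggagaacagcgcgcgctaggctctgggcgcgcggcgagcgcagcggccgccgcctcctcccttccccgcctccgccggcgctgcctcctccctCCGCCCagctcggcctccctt
OXSR1: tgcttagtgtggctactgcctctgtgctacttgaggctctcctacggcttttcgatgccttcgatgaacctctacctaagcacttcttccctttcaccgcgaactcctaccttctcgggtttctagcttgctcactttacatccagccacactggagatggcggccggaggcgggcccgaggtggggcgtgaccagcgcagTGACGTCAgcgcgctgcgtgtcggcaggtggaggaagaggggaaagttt
WNK1: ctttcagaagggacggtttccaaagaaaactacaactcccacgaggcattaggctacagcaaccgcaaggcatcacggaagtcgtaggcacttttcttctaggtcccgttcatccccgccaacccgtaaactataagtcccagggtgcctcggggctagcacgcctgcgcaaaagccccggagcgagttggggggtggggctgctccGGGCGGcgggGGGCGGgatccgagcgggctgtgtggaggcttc

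The STK39 window held 3 GC boxes and 32 CpG dinucleotides, the WNK1 window 2 GC boxes and 19 CpG, and the OXSR1 window 17 CpG and no GC box. The GC box occurred in 42.6% of the 35116 RefSeq promoter windows of this length, and the median window held 11 CpG (quartiles 3 and 23). In the OXSR1 window TGACG was found 2 times, as overlapping matches on the 2 strands that together spell the full palindrome TGACGTCA. Any match to TGACG occurred in 21.2% of all windows, and the share with the full palindrome was not counted. None of these 3 windows held the CAAT box motif CCAAT, which 32% of all windows hold on either strand, or the TATA box motif TATAAA, which 10.7% hold. Likewise none held the E-box motif CACGTG, which 6.34% hold. These matches describe the letters only. RefSeq windows were found for 7 of the 8 members.

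STK39, which like OXSR1 acts directly on the cotransporters, fell. It measured 149, 152 and 138 CPM in the libraries labelled knockout, against 343, 349.5 and 342 CPM in the controls. The 3 knockout-labelled values lay far below all 3 controls, with no overlap. From means of 146 ± 7.31 and 345 ± 4.05 CPM (SD, n = 3 each), the log2 fold change was -1.24 (SE 0.051), so that 42.3% of the control level was left. These values rest on 2461, 2137 and 2104 reads in the libraries labelled knockout and 5554, 5311 and 4584 in the controls. The gene spans 167954020 to 168248141 of chromosome 2 on the minus strand (GRCh38, GENCODE release 29).

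Of the 16369 genes tested, 204 had a fold change as low as that of STK39 or lower, which is 1.25%. By CPM in the controls, 2.25% of all tested genes stood above STK39. Among the 369 genes at least as high as STK39 by that measure, 3 fell as far, STK39 included. Because STK39 was picked with its fold change known, nothing is read from these counts. The fold change stayed between -1.27 and -1.20 with each library left out in turn.

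OXSR1, the relative that shares the substrates of STK39, moved the other way by a small amount. It measured 115, 113 and 112 CPM in the libraries labelled knockout, against 100.4, 102 and 97.5 CPM in the controls. The ranges were close but did not overlap. The log2 fold change was 0.18 (SE 0.047), which was called. This call did not survive leaving out any 1 library other than control replicate 2, and was also absent with DESeq2, with library-size or upper-quartile scaling and with no filter on low counts. The gene spans 38165089 to 38255488 of chromosome 3 (plus strand).

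The balance between the relatives differed between the groups. Per kilobase of exon, the STK39 level was 1.84 ± 0.0757 times that of OXSR1 in the libraries labelled knockout and 4.93 ± 0.0763 times in the controls (SD, n = 3 each). STK39 made up 64.8% ± 0.942 of their summed level in the libraries labelled knockout and 83.1% ± 0.215 in the controls. The sum itself was 53.0 ± 1.93 RPKM (CPM per kilobase of exon) in the libraries labelled knockout and 97.7 ± 1.29 RPKM in the controls. OXSR1 RNA rose by far less than STK39 RNA fell. In bulk RNA, less RNA per cell and fewer cells with the RNA cannot be told apart.

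**Figure D1:**
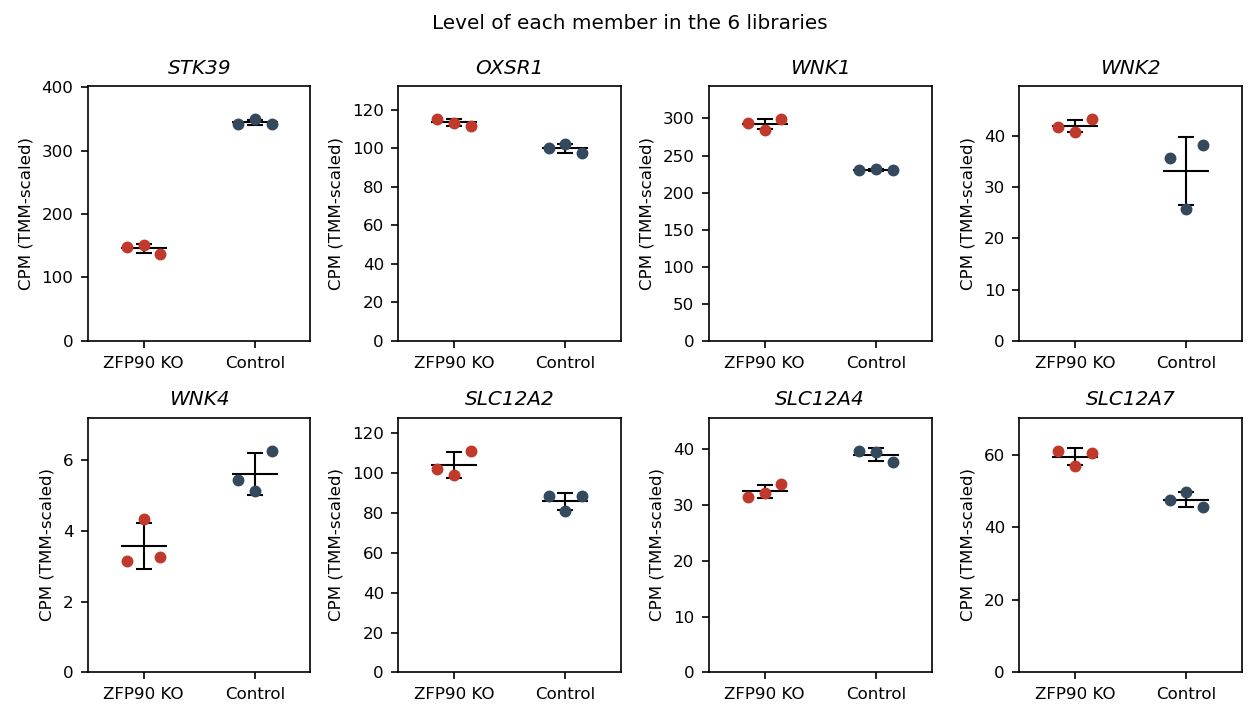
CPM with TMM-scaled library sizes for each of the 8 members, 1 panel a gene, y axes from 0; points are libraries, and the bar and whiskers are mean and SD of 3. STK39, WNK4 and SLC12A4 are lower in the libraries labelled knockout and the other 5 higher, with no overlap in any panel.

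All 8 members passed the count filter. Of these, 4 were called higher and 3 lower, where 21.1% of all tested genes were called in either direction, 9.73% higher and 11.4% lower. The ranges of the groups did not overlap for 8 of 8 members, and for 41.2% of all genes tested. Because the members were picked with this comparison known, nothing is read from these shares. The median log2 fold change was 0.23 over the members and 0.01 over all genes. Over all genes, 46.1% of calls were higher, and 29.6% with library size alone as the scaling. The number of members called fell to 3 without replicate 1 labelled knockout and to 4 without replicate 3 labelled knockout or without control replicate 1. Over all genes these fits, in the same order, called 1781, 1918 and 2170, against 3454 with all libraries. STK39, WNK1 and SLC12A7 kept their calls in all 14 alternative fits at the same threshold.

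WNK1, the most widely expressed WNK kinase, rose. It measured 294, 285 and 299 CPM in the libraries labelled knockout, against 230.0, 232 and 229.9 CPM in the controls. The controls lay within a few CPM of each other and below every knockout-labelled library. The log2 fold change was 0.34 (SE 0.044), between 0.33 and 0.36 with 1 library left out. Gene-level counts do not separate the full-length WNK1 transcripts from the kinase-deficient ones described in kidney. The gene spans 752593 to 911452 of chromosome 12 (plus strand).

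WNK2, a WNK kinase best known from brain, was not called. It measured 41.7, 40.9 and 43.3 CPM in the libraries labelled knockout, against 35.7, 25.7 and 38.2 CPM in the controls. Control replicate 2 stood below the other controls. WNK2 lies on chromosome 9 (93184916 to 93320572, plus strand), where this control library held 70.9% of the level of the other controls at the median of 545 tested genes. On the chromosomes of the other members it held between 102% and 103%. The log2 fold change of WNK2 was 0.34 (SE 0.13) with all libraries and 0.19 (SE 0.070) without control replicate 2, and neither was called.

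WNK4, a kinase studied mainly for its control of salt transport in kidney, fell from a low level. It had 52, 61 and 50 reads in the libraries labelled knockout and 88, 78 and 84 reads in the controls, or 3.14, 4.33 and 3.27 against 5.43, 5.13 and 6.27 CPM. The groups did not overlap. The log2 fold change was -0.65 (SE 0.17), and between -0.80 and -0.56 with 1 library left out. With 1 library left out it stayed called only when that was replicate 2 of either group. Of the exon bases of WNK4 (chromosome 17 from 42780678 to 42796936, plus strand), 16.0% also belong to COA3, a mitochondrial assembly factor on the opposite strand, and the strand setting of the counting is not given. For COA3 itself the log2 fold change was -0.06 (SE 0.11; edgeR adjusted p = 0.716).

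Within the WNK family, WNK1 made up 84.0% ± 0.524 of the summed level per kilobase in the libraries labelled knockout and 81.7% ± 2.60 in the controls (SD, n = 3 each). WNK4 made up 2.91% ± 0.579 in the libraries labelled knockout and 5.60% ± 0.456 in the controls. The family sum was 24.2 ± 0.477 RPKM in the libraries labelled knockout and 19.7 ± 0.520 RPKM in the controls. WNK1 set most of that sum, and it was the 1 kinase of these 3 that was called higher.

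SLC12A2, the carrier that STK39 activates, rose. It measured 102, 98.9 and 111 CPM in the libraries labelled knockout, against 88.4, 81.1 and 88.4 CPM in the controls. The groups were separate, with replicate 3 labelled knockout the highest library. The log2 fold change was 0.28 (SE 0.063), and it was no longer called without replicate 1 or without replicate 3 labelled knockout. The gene spans 128083766 to 128189688 of chromosome 5 (plus strand).

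The outward carriers split. SLC12A7 rose, with 61.1, 56.8 and 60.5 CPM in the libraries labelled knockout against 47.5, 49.8 and 45.5 CPM in the controls. Every knockout-labelled library was above every control, and the log2 fold change was 0.32 (SE 0.061). SLC12A7 lies near the start of chromosome 5, from 1050376 to 1112035 on the minus strand.

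SLC12A4 fell, with 31.4, 32.1 and 33.7 CPM in the libraries labelled knockout against 39.7, 39.6 and 37.6 CPM in the controls. Its groups did not overlap, and the log2 fold change was -0.27 (SE 0.063). Leaving out replicate 1 or 2 labelled knockout, or control replicate 1, ended the call. SLC12A4 lies on chromosome 16 from 67943474 to 67969601 on the minus strand, 560 kb from the targeted gene ZFP90. Of its exon bases 4.05% are shared with LCAT, an enzyme of cholesterol esterification on the same strand, whose log2 fold change was -0.39 (SE 0.20; edgeR adjusted p = 0.201).

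Among these 3 carriers, SLC12A4 made up 16.5% ± 0.528 of the summed level per kilobase in the libraries labelled knockout and 22.7% ± 0.429 in the controls. SLC12A2 made up 41.3% ± 0.949 in the libraries labelled knockout and 38.9% ± 1.97 in the controls. For SLC12A7 the share was 42.1% ± 1.14 in the libraries labelled knockout and 38.4% ± 1.59 in the controls (SD, n = 3 each). The ranges of the groups did not overlap for any of the 3 shares, narrowly so for SLC12A2, and SLC12A4 had the widest gap.

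**Figure D2:**
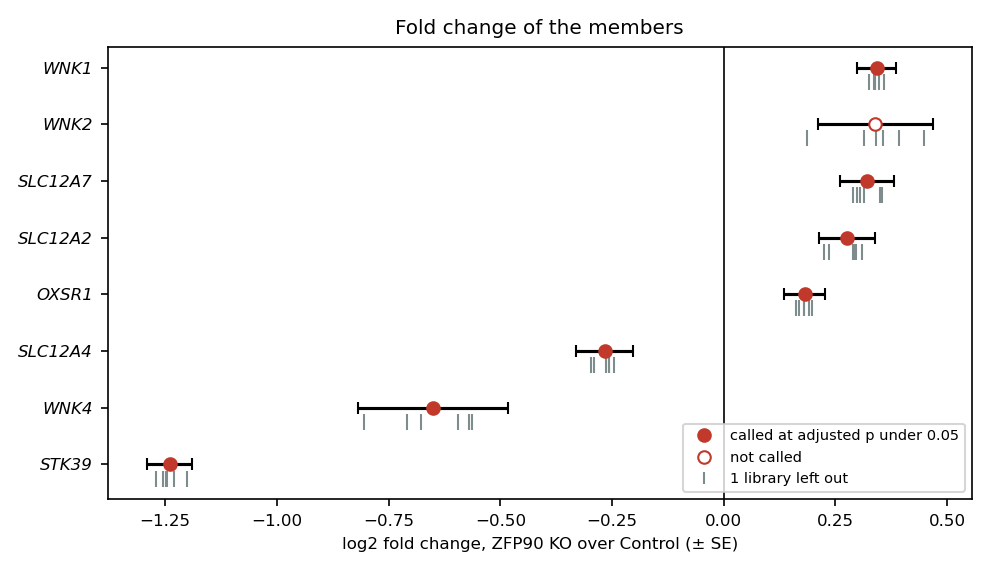
Log2 fold change of each member, libraries labelled knockout over control, with SE (whiskers) and the values with 1 library left out (ticks); filled points are called. STK39 at -1.24 stands apart from the other members, which lie between -0.65 and 0.34.

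Per kilobase of exon STK39 was the highest member in both groups, at 34.4 ± 1.72 RPKM in the libraries labelled knockout and 81.2 ± 0.953 RPKM in the controls (SD, n = 3 each). In the libraries labelled knockout WNK1 (20.4 ± 0.496 RPKM) and OXSR1 (18.7 ± 0.272 RPKM) followed. In the controls OXSR1 (16.5 ± 0.385 RPKM) and WNK1 (16.1 ± 0.0863 RPKM) followed, with overlapping ranges. Lengths came from the union of exons. With the longest transcript instead, OXSR1 stood at 24.9 and WNK1 at 24.8 RPKM in the libraries labelled knockout, so the order of this pair depends on the length used.

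SLC12A7 and SLC12A2 came next, with overlapping ranges, at 9.94 ± 0.388 and 9.76 ± 0.605 RPKM in the libraries labelled knockout and 7.96 ± 0.358 and 8.06 ± 0.398 RPKM in the controls. With the longest transcript SLC12A2 stood above SLC12A7, at 15.1 ± 0.938 against 11.3 ± 0.440 RPKM in the libraries labelled knockout and 12.5 ± 0.616 against 9.02 ± 0.405 RPKM in the controls, so the order of this pair also depends on the length used. SLC12A4 was at 3.90 ± 0.144 RPKM in the libraries labelled knockout and 4.69 ± 0.139 RPKM in the controls. WNK2 was at 3.18 ± 0.0927 RPKM in the libraries labelled knockout and 2.51 ± 0.503 RPKM in the controls. WNK4 was the lowest, at 0.703 ± 0.128 RPKM in the libraries labelled knockout and 1.10 ± 0.116 RPKM in the controls. Neighbours in this order below SLC12A2 did not overlap in either group.

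**Figure D3:**
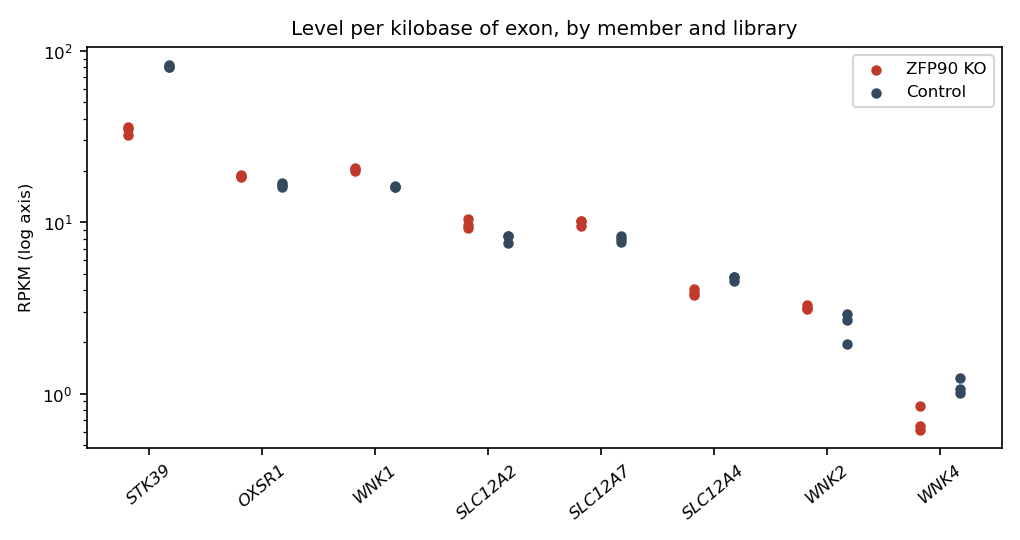
RPKM (CPM per kilobase of exon, log axis) for each member and library, ordered by the control mean, with libraries labelled knockout to the left of controls. STK39 is the highest member in all 6 libraries, and lies nearer to WNK1 and OXSR1 in the libraries labelled knockout than in the controls.

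Other genes of the pathway were counted from lists chosen with earlier results of these data known, so nothing is read from the shares called in them. Most genes named from the lists were picked because they were called. Their adjusted p-values therefore only describe the fit across all genes. The median log2 fold change was -0.11 over the kinase partners, -0.31 over the other SLC12 genes, -0.12 over chloride channels, -0.01 over sodium, potassium and bicarbonate transport, 0.09 over the osmotic response and 0.05 over the STE20 kinases, beside 0.01 over all genes. Of 20 partners of the WNK and STK39 kinases 18 passed the count filter, of which 1 rose and 3 fell, or 22.2% against the 21.1% called over all genes. CAB39 (MO25), the scaffold protein that activates STK39 and OXSR1, fell to 157 ± 2.43 CPM in the libraries labelled knockout, against 186 ± 4.83 CPM in the controls (SD, n = 3 each; log2 fold change -0.25, SE 0.045; edgeR adjusted p = 0.00632). NEDD4L, a ubiquitin ligase of sodium transport, fell by 0.39 on the log2 scale (edgeR adjusted p = 0.00909). TSC22D1, of a family whose members bind the WNK pathway, rose by 0.30 (edgeR adjusted p = 0.00305). These 3 calls held with each library left out in turn, whereas RELL1, a receptor relative that binds OXSR1, fell by 0.54 (edgeR adjusted p = 0.0265) and was not called without any 1 library labelled knockout. The ligase scaffold CUL3, which degrades WNK kinases, did not pass the test (log2 fold change -0.08, SE 0.044; edgeR adjusted p = 0.243). Its adaptor KLHL3 had 0 to 2 reads a library, and WNK3 had 3 to 10. Without control replicate 2, 2 of these partners rose and 5 fell. That fit called 4622 of all genes, against 3454 with all libraries.

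Of the 6 other SLC12 genes 4 passed the filter and 2 of these fell, or 50% called, against 21.1% over all genes. SLC12A5 (KCC2), the carrier of neurons, had 3, 4 and 6 reads in the libraries labelled knockout and 12, 13 and 11 reads in the controls (log2 fold change -1.48, SE 0.35; edgeR adjusted p = 0.0184), and was not called without replicate 1 or 2 labelled knockout or without control replicate 3. The 5 neuronal markers summed to between 88.7 and 97.0 CPM in the libraries labelled knockout and between 165 and 179 CPM in the controls. SLC12A5 is itself 1 of these markers, and SYT1 made up most of the sum. None of the 5 was at 0 in all libraries. Of the 4 that passed the filter 3 were called lower (SLC12A5, SYT1 and GAD1), where 11.4% of all tested genes were called lower. The fourth, RBFOX3, had a log2 fold change of -0.06 and was not called. SNAP25, too low to test, had 8, 6 and 5 reads in the libraries labelled knockout and 1, 1 and 0 reads in the controls, the opposite direction. Their part in the SLC12 values was not tested. The kidney carriers SLC12A1 and SLC12A3 had at most 2 reads in any library, and the kidney markers UMOD and AQP2 had 0.

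Of 21 chloride channel genes 20 passed the filter, of which 1 rose and 6 fell, or 35% called, against 21.1% over all genes. The intracellular channel protein CLIC1 fell by 0.43 (edgeR adjusted p = 0.00062), CLIC4 by 0.38 (adjusted p = 0.0162) and the scramblase and channel ANO6 by 0.35 (adjusted p = 0.0019). Among subunits of the volume-regulated anion channel, LRRC8D rose by 0.39 (edgeR adjusted p = 0.00257) and LRRC8C fell by 0.36 (adjusted p = 0.015), while the essential subunit LRRC8A did not pass (log2 fold change 0.25, SE 0.16; adjusted p = 0.312). LRRC8A lies on chromosome 9, and control replicate 2 was low at 30.9 CPM, beside 48.8 and 49.4 CPM in the other controls. The calcium-activated channel ANO1 fell by 0.29 (edgeR adjusted p = 0.0412). CLIC1, ANO6 and LRRC8D held with each library left out. Of the other named calls, that of CLIC4 was lost without replicate 1 or 3 labelled knockout, that of LRRC8C without replicate 1 labelled knockout or control replicate 1, and that of ANO1 without replicate 1 or 2 labelled knockout or control replicate 1. In all, 1 rose and 2 fell without replicate 1 labelled knockout, and 1 rose and 3 fell without control replicate 1. Over all genes these fits called 1781 and 2170, against 3454 with all libraries.

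Of 21 genes of sodium, potassium and bicarbonate transport 17 passed the filter. Of these 3 rose and 7 fell, or 58.8% called, against 21.1% over all genes. KCNN4, the calcium-activated potassium channel that drives chloride exit in colonic epithelium, fell to 39.2 ± 0.465 CPM in the libraries labelled knockout, against 69.1 ± 3.06 CPM in the controls (SD, n = 3 each; log2 fold change -0.82, SE 0.057; edgeR adjusted p = 4.11e-05). The potassium channel KCNK6 fell by 0.55 (edgeR adjusted p = 0.00165) and the chloride-bicarbonate exchanger SLC26A6 by 0.44 (adjusted p = 0.00923). The scaffold protein SLC9A3R1, which holds transporters at the apical membrane, rose by 0.31 (edgeR adjusted p = 0.00938). Those 4 calls held with each library left out. The sodium pump subunit ATP1B1 fell by 0.39 (edgeR adjusted p = 0.0168), a call lost without replicate 1 labelled knockout. Without replicate 1 labelled knockout, 2 of the list rose and 3 fell, in a fit that called 1781 of all genes, against 3454 with all libraries.

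Of 10 osmotic response genes 8 passed the filter, of which 2 rose and 1 fell, or 37.5% called, against 21.1% over all genes. The betaine carrier SLC6A12 had 25, 14 and 15 reads in the libraries labelled knockout and 2, 7 and 7 reads in the controls, and rose by 1.69 on the log2 scale (SE 0.43; edgeR adjusted p = 0.025). The sorbitol-forming enzyme AKR1B1 rose by 0.54 (adjusted p = 0.0359) and the chaperone HSPA4L fell by 0.50 (adjusted p = 0.0121). AKR1B1 lies on chromosome 7, one of those that were low in control replicate 2, and measured 31.9, 22.6 and 35.0 CPM in the controls. Without replicate 1 labelled knockout edgeR called 0 of these genes, with 3 at an unadjusted p under 0.05. It called 1 without replicate 3 labelled knockout or without control replicate 1, and 5 without control replicate 2. Over all genes these fits, in the same order, called 1781, 1918, 2170 and 4622, against 3454 with all libraries. SLC6A12 was called neither without any 1 library labelled knockout nor without control replicate 1. AKR1B1 was not called without replicate 1 or 3 labelled knockout or without control replicate 1. HSPA4L kept its call in 5 of the 6 fits with 1 library left out.

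Of 26 STE20-family relatives of STK39 23 passed the filter, of which 5 rose and 2 fell, or 30.4% called, against 21.1% over all genes. TNIK, a kinase that binds the Wnt effector TCF7L2, fell to 29.1 ± 4.62 CPM in the libraries labelled knockout, against 67.1 ± 4.33 CPM in the controls (SD, n = 3 each; log2 fold change -1.20, SE 0.11; edgeR adjusted p = 0.000179). STK10 rose by 0.35 (edgeR adjusted p = 0.00505), SLK rose by 0.25 (adjusted p = 0.00581) and STK24 fell by 0.31 (adjusted p = 0.00527). These 4 calls held with each library left out. STK25 and MAP4K2 rose by 0.19 and 0.24 (edgeR adjusted p = 0.0172 and 0.036), and neither was called without replicate 1 or 3 labelled knockout or control replicate 1. Without replicate 1 or replicate 3 labelled knockout, 2 of the list rose and 2 fell. Over all genes these fits called 1781 and 1918, against 3454 with all libraries.

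**Figure D4:**
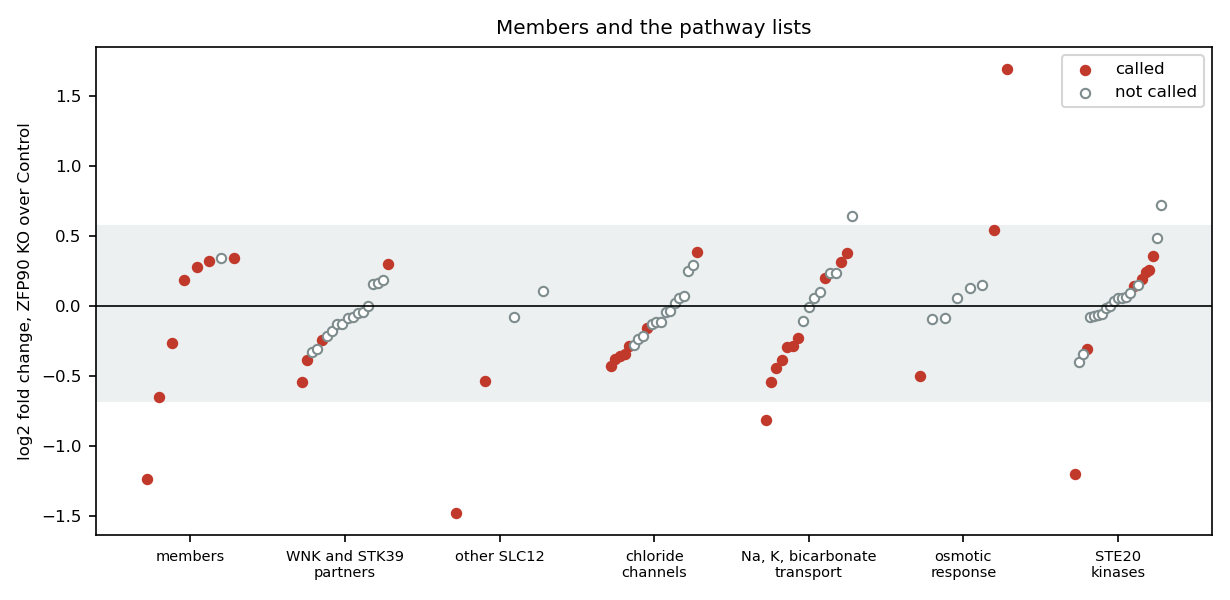
Log2 fold change, libraries labelled knockout over control, of the 8 members and of the tested genes of each list; filled points are called, and the grey band spans the 5th to 95th percentile of all tested genes (-0.68 to 0.57). STK39, SLC12A5, KCNN4, TNIK and SLC6A12 are called genes outside the band.

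Around STK39 on chromosome 2, the 10 nearest tested genes on each side were compared, which reached as far as 6613 kb away. Only the 83.7% of tested genes whose symbol had a position could enter, so nearer tested genes may be missing. On the side of lower coordinates the first was TTC21B, 2000 kb away. Of these 20 genes 1 rose and 1 fell, where 21.1% of all tested genes were called, and the median log2 fold change was 0.01. The ranges of the groups did not overlap for 6 of the 20, and for 41.2% of all genes tested. CERS6, the nearest of these 20, at 208 kb, did not pass the test (log2 fold change 0.09, SE 0.053, edgeR adjusted p = 0.243). The endothelial nitric oxide synthase adaptor NOSTRIN fell by 0.52 (edgeR adjusted p = 0.0373). The kinetochore gene SPC25 rose by 0.91 (edgeR adjusted p = 0.0280). These 2 genes were named after their values were seen, and they overlap each other. Both calls were lost with any 1 library other than control replicate 2 left out. The 20 fold changes ran from -0.66 to 0.91, so none was as low as that of STK39.

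The 5 genes whose profile over the 6 libraries came closest to that of STK39 were PDE2A, RP11-66B24.4, HOMER2, UNC13A and UCHL5, with root-mean-square distances of 0.05 to 0.07 between mean-centred log2 CPM values. PDE2A, a cyclic nucleotide phosphodiesterase, was nearest, at 16.1 ± 0.376 CPM in the libraries labelled knockout and 36.4 ± 1.46 CPM in the controls (SD, n = 3 each). UNC13A, a vesicle priming protein, was the highest of them, at 81.0 ± 1.07 CPM in the libraries labelled knockout and 178 ± 4.88 CPM in the controls. Their log2 fold changes lay between -1.34 and -1.14, as the choice by likeness fixes.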

How the data were processed

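RNA sequencing gave 1 table per library for 3 libraries labelled ZFP90 knockout and 3 controls. The authors deposited unnormalised counts of reads for each gene symbol. Per the submitters' processing notes their tools were TopHat2 2.0.11 and HTSeq with the builds hg19 and GRCh37, and the strand setting is not given in the sources used here. The 5 HTSeq summary lines, 31.7% to 32.4% of listed reads, stayed out of library sizes and tests. Counts were tested with edgeR 4.0.16 (R 4.3.3) by the quasi-likelihood test with TMM scaling and filterByExpr defaults (10 reads, total 15). This left 16369 genes, with Benjamini-Hochberg adjustment over all of them. The SE given with an edgeR fold change was worked back from the test. It is the absolute log2 fold change divided by the square root of the quasi-likelihood F statistic. CPM use TMM-scaled library sizes, and 3 reads correspond to 0.181 to 0.224 CPM, counting error only. RPKM divide CPM by exon lengths from GENCODE 29 (GRCh38), a build other than that of the counts, so genes were matched through their symbols, with a position for 83.7% of those tested. The members and lists were chosen with earlier results of these data known. Named genes are all members, the called genes of each list with the largest fold changes (up to 6), a few fixed partners, and the 5 profiles nearest STK39 (prior count 2). Replicates differed by more than sampling noise in every pair (chi-square per degree of freedom 2.08 to 17.8). Alternatives included DESeq2 1.42.0 and limma-voom (limma 3.58.1). Some listed genes that this rule names are not reported here.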

Additional observations from a re-analysis of the deposited data

How the results depend on the processing

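Over 14 alternative fits, the log2 fold changes of the 8 members kept their sign throughout, in 112 of 112 values; 93 also kept their side of the threshold, 18 lost a call and 1, WNK2 with no filter on low counts, gained one. STK39 ranged from -1.31 to -1.20, WNK1 from 0.28 to 0.36 and SLC12A7 from 0.25 to 0.35. At an adjusted p under 0.01, 3 members, 16 listed genes and 1487 of all genes were called, and edgeR called 0 neighbours of STK39 (6 at an unadjusted p under 0.05). With 1 library left out, 3 to 7 members, 16 to 44 listed genes, 1781 to 4622 of all genes and 0 to 3 neighbours of STK39 were called, with the lowest counts without replicate 1 labelled knockout (for neighbours also without replicate 2 or 3 labelled knockout or control replicate 1) and the highest without control replicate 2. Where edgeR called 0 neighbours, 4 to 8 had an unadjusted p under 0.05. Neighbour calls numbered 4 with library size alone, 4 with no filter and 1 with DESeq2. With the replicate block, 7 members and 3463 of all genes were called, against 7 and 3454 without it. The cause of these differences was not tested. Deviations of same-numbered libraries from their group means correlated at 0.0491, 0.145 and 0.0933, so the numbers were not taken as pairs. With the longest transcript in place of the union of exons all 8 members had higher RPKM, and 2 pairs changed order in the libraries labelled knockout, OXSR1 with WNK1 and SLC12A2 with SLC12A7. In both groups the level moved by over 1.5 times for SLC12A2, SLC12A4 (to 8.18 RPKM in the controls) and WNK2 (to 5.38 RPKM in the libraries labelled knockout). Low read numbers limit WNK4, SLC12A5 and SLC6A12, and KLHL3 and WNK3 were too low to test.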
